A study of Mus musculus with 4 samples.

Results

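The genes described here encode the subunits of the proteasome, including the immunoproteasome, and its activators. They were chosen by gene symbol: every probe whose RefSeq accession maps to a symbol that starts with Psma, Psmb, Psmc, Psmd or Psme plus a number. This gave 45 of 20619 named genes, on 55 of 39429 probes. Of these, 43 encode proteasome subunits, activators or assembly chaperones, and Psmc3ip and Psme3ip1 encode other proteins and were taken by the prefix alone. The rule uses symbols and no measured value.

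C57BL6 mice received dextran sulfate sodium (DSS), a polymer that damages the colon epithelium and so sets off colitis, and RNA was taken on day 10 from lamina propria lymphocytes, immune cells of the layer beneath the gut lining. The arrays stood for Stat4-/- mice given DSS and leukemia inhibitory factor (LIF, a cytokine), Stat4-/- mice given DSS, wild type mice given DSS and LIF, and wild type mice given DSS. All 4 groups therefore received DSS, 5 mice were used per group, and the labels do not say whether their RNA was pooled. Each group had 1 one-colour Agilent array, so no difference has a replicate check, no p-value was computed, and a difference of at least 2-fold was used to count genes.

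The proteasome is the main protease of the cytosol and nucleus. Its core particle is a barrel of outer alpha rings and inner beta rings, and the beta subunits Psmb5, Psmb6 and Psmb7 carry the cutting sites. A regulatory particle, made of the Psmc ATPases and the Psmd subunits, binds, unfolds and feeds in proteins tagged with ubiquitin. In cells exposed to interferon gamma, and in many immune cells at rest, Psmb8, Psmb9 and Psmb10 are built in in place of Psmb5, Psmb6 and Psmb7, which changes the peptides cut for display on MHC class I. The activator PA28, a ring of Psme1 and Psme2, is induced by the same cytokine.

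Promoter windows are shown for the 3 inducible catalytic subunits Psmb8, Psmb9 and Psmb10, for Psme1 as a PA28 gene that differed little, and for Psmb5, the constitutive subunit that Psmb8 replaces. Each window runs from 250 bases before to 50 bases after the start of the gene (RefSeq, GRCm38.p6), 5′ to 3′ on the strand of the gene. Capitals mark a match on either strand to 1 of 3 motifs: a gamma activated site (TTCNNNGAA), to which STAT proteins bind, an interferon response element core (GAAA, any 2 bases, GAAA), or an antioxidant response element (TGACNNNGC).
Psmb8, chr17:34197945-34198244, plus strand: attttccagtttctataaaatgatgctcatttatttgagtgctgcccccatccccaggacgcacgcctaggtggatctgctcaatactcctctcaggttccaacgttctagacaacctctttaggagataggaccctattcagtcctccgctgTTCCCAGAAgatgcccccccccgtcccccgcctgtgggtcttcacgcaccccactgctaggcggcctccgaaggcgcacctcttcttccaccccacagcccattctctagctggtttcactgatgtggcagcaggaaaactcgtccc
Psmb9, chr17:34187281-34187580, minus strand: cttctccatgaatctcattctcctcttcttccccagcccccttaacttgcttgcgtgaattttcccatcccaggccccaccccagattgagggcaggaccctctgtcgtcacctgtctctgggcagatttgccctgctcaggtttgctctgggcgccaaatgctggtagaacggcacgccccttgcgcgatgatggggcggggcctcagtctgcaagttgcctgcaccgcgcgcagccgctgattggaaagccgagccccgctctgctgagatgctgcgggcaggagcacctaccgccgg
Psmb10, chr8:105938343-105938642, minus strand: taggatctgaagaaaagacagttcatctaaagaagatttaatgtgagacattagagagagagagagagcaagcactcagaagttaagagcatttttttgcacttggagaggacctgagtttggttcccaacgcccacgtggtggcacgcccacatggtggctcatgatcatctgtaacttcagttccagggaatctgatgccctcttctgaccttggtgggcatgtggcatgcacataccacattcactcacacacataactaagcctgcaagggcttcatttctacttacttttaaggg
Psme1, chr14:55578244-55578543, plus strand: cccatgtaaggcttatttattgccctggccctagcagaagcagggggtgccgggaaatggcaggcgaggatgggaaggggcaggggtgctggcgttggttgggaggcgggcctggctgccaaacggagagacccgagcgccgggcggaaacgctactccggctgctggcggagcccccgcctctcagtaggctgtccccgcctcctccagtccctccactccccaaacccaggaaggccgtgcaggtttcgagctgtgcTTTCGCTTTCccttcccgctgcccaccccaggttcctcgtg
Psmb5, chr14:54617946-54618245, minus strand: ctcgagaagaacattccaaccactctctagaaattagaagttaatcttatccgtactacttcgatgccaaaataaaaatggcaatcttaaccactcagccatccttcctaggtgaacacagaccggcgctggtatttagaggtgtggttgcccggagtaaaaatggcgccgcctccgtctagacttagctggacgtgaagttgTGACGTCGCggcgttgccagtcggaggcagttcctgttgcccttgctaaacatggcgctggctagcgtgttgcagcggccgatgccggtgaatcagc
The window of Psmb8 held a gamma activated site at bases 154 to 162, that of Psme1 an interferon response element core at bases 260 to 269, on the opposite strand, and that of Psmb5 an antioxidant response element at bases 204 to 212. None of the 3 motifs was found in the windows of Psmb10 and Psmb9, and the window of Psmb9 shares 275 bases with that of Tap1, its neighbour, a gene of the peptide transporter for MHC class I. A window was held for 36 of the 43 proteasome genes (39 windows in all). The gamma activated site occurred in 2 of the 39 (5.13%), against 8.30% of all 32851 windows, the interferon response element core in 4 (10.3%), against 3.44%, and the antioxidant response element in 6 (15.4%), against 12.4%. A match is a description of the letters, not of a bound site. On chromosome 17 Psmb9, Tap1, Psmb8 and Tap2 follow each other, and on chromosome 14 Emc9 alone lies between Psme1 and Psme2.

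Array brightness varied, with 75th percentiles of processed signal from 23.8 to 122.9, and 37.6% to 61.7% of probes were well above background. Levels are given as log2 processed signal over the 75th percentile of the same array. The arrays of wild type mice and of labelled knockout mice given DSS were read in 1 scan, and the other arrays each in a scan of its own. The array of wild type mice with DSS and LIF stood apart: over 12674 probes its Pearson correlation with the others was 0.800 to 0.818, against 0.951 to 0.980 among the other 3 arrays. Stat4 had log2 levels of −0.48 and 0.31 on the arrays labelled knockout with DSS and LIF and with DSS, against 0.21 and −0.49 on those of wild type mice with DSS and LIF and with DSS. The genotypes could not be told by this probe, and the sources used here do not give its place relative to the deletion. The arrays are therefore called labelled knockout. All 6 T cell markers and all 6 epithelial markers listed were well above background on each array, so RNA of both was present. All 5 neutrophil markers passed on each array but that of wild type with DSS and LIF, where 3 did. There 1 of 3 pan-leukocyte markers passed, against 3 of 3 on the others. These markers do not give the share of lymphocytes in the RNA.

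Most proteasome genes were readable. By their brightest probe 40 of the 45 genes were well above background on the array labelled knockout with DSS and LIF, 39 on that labelled knockout with DSS, 33 on that of wild type with DSS and LIF and 42 on that of wild type with DSS. The count was 32 for all 4 arrays together. All 7 alpha ring subunits and all 7 constitutive beta subunits passed on each array. The thymus beta subunit Psmb11, the testis alpha subunit Psma8 and the assembly chaperone Psmd9 were below the mark on every array. Error within an array was small: Psme1, which was printed on 10 spots, had SDs over spots of 0.04 to 0.06 on the log2 scale. Across probes with at least 5 spots the median SD of a log2 difference was 0.10 to 0.11. This covers spots of 1 array and not mice or hybridizations.

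Psmb8 encodes the immunoproteasome subunit that replaces Psmb5. Its log2 level was −1.79 and −1.66 on the arrays labelled knockout with DSS and LIF and with DSS, −1.98 on that of wild type with DSS and LIF, where it was not well above background, and −0.52 on that of wild type with DSS. The last array was the high one.

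Psmb9, which replaces Psmb6, had log2 levels of −0.94 and −0.81 on the arrays labelled knockout with DSS and LIF and with DSS, against 0.29 and 0.17 on those of wild type with DSS and LIF and with DSS. Psmb10, which replaces Psmb7, had 2.15 and 2.47 on the labelled knockout arrays in the same order, against 3.27 and 3.39 on the wild type arrays. For both genes the labelled knockout arrays lay below both wild type arrays. Constitutive subunits showed this order too, and how many of all genes show it was not counted. It therefore cannot be said to mark the immunoproteasome genes.

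Psme2, the beta subunit of PA28, showed the same order by its brighter probe, with 3.76 and 4.00 on the arrays labelled knockout with DSS and LIF and with DSS, against 5.43 and 4.83 on those of wild type with DSS and LIF and with DSS. Psme1, the alpha subunit, had 2.90 and 2.48 on the labelled knockout arrays, against 2.83 and 2.77 on the wild type arrays. Its values overlapped between the genotypes.

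Among the constitutive catalytic subunits, Psmb5 had 4.45 and 4.37 on the labelled knockout arrays with DSS and LIF and with DSS, against 5.43 and 5.05 on the wild type arrays with DSS and LIF and with DSS. Psmb6 had 4.51 and 4.57, against 5.18 and 4.69. Both were below the wild type levels, Psmb6 by little under DSS and Psmb5 by its brighter probe alone. The dimmer probe of Psmb5 had −0.62 and −0.60, against −0.92 and −0.15, and overlapped between the genotypes. Psmb7 had 0.40 and 1.18 on the labelled knockout arrays, against −0.61 and 0.63 on the wild type arrays, and its genotypes overlapped.

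**Figure D1:**
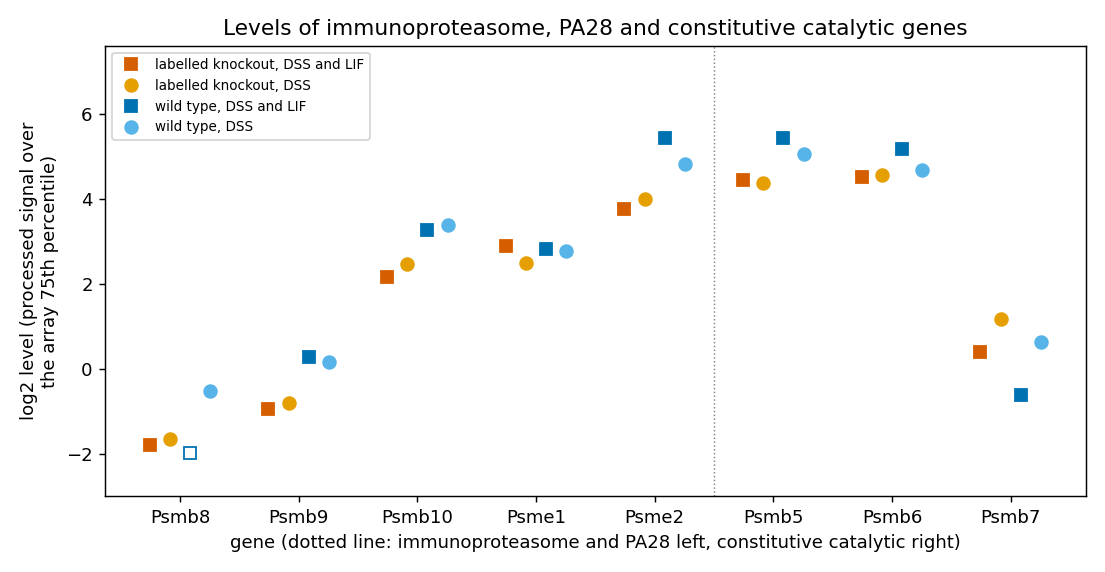
Log2 level (processed signal over the 75th percentile of the array, vertical axis) of 8 genes on 4 arrays, 1 point per array; squares have LIF, circles do not, and the open symbol is not well above background. By the brightest probe of each gene, Psmb9, Psmb10, Psme2, Psmb5 and, by little under DSS, Psmb6 lie lower on both labelled knockout arrays than on both wild type arrays. How common this order is among all genes was not counted. The dimmer probes of Psme2 and Psmb5, not drawn, overlap between the genotypes. Levels of different genes come from different probes and cannot be set against each other.

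Under DSS alone, labelled knockout and wild type were compared within 1 scan. All 5 immunoproteasome and PA28 genes were below wild type in this comparison, with log2 differences of −1.13 for Psmb8, −0.99 for Psmb9, −0.93 for Psmb10, −0.83 for Psme2 and −0.29 for Psme1. Their median was −0.93, against −0.27 for the 31 constitutive subunits and 0.08 for all 10500 measured genes. Only Psmb8 reached 2-fold, at 2.19-fold lower, and with normexp background correction (offset 50) it did not (log2 difference −0.26). Its level of −1.66 in the labelled knockout was near −2.13, the lowest level marked well above background on that array. Both probes of Psme2 had the same sign (−0.83 and −0.98). The 9 spots of Psme1 that could be paired averaged −0.29 ± 0.07 (SD over spots).

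Of the 39 members measured under DSS, 7 (17.9%) had values in the labelled knockout lower by 2-fold or more and 1 had a value higher by 2-fold or more, against 6.81% of all measured genes lower and 13.2% higher. The lower genes were Psmb8, 5 alpha ring genes and Psmd14. The higher gene was Psmc3ip (3.46-fold), which encodes a protein of meiotic recombination and no subunit.

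The alpha ring held the lowest values. The rings that it forms gate the entry to the barrel, and all 7 of its genes were below wild type under DSS, with a median log2 difference of −1.04. Psma1 had log2 levels of 2.87 and 2.38 on the arrays labelled knockout with DSS and LIF and with DSS, against 4.80 and 4.07 on those of wild type with DSS and LIF and with DSS. Psma5 had 4.62 and 5.09, against 6.13 and 6.47, and Psma2 had 3.95 and 4.21, against 5.43 and 5.25. For these genes, and for Psma3 with 4.75 and 4.79, against 6.91 and 5.80, the labelled knockout arrays lay below both wild type arrays. Psma7 had the same order, with −0.26 and 0.07, against 0.81 and 0.28. This order was not counted over all genes. Psma4 had 1.53 and 0.96, against −0.67 and 2.61, and its genotypes overlapped. So did those of Psma6, with 1.54 and 1.16, against −0.49 and 1.92. Under DSS Psma1 was 3.22-fold lower, Psma4 3.13-fold, Psma5 2.60-fold, Psma2 2.06-fold and Psma3 2.01-fold. Over 7 alternatives the log2 difference ran from −1.96 to −1.67 for Psma1, from −1.78 to −1.65 for Psma4 and from −1.96 to −1.26 for Psma5. Psma2 ran from −1.60 to −0.99, the last with quantile normalization, where it missed 2-fold. Psma6 and Psma7 had log2 differences of −0.76 and −0.21. The other beta subunits of the inner rings, which carry no cutting site, had log2 differences of −0.84 for Psmb4, −0.56 for Psmb3 and −0.40 for Psmb1, against 0.94 for Psmb2. The value of Psmb2 was 0.25 with normexp, 0.33 with quantile normalization and 0.30 in the authors' deposited table.

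The regulatory particle was less lowered. The 6 ATPases had a median log2 difference of −0.14 and a range of −0.86 (Psmc6) to 0.49 (Psmc1), and the 11 other subunits had a median of −0.10. Psmc1 was the 1 of 5 members with a second measured probe whose probes had opposite signs in this comparison: its second probe had −0.36, and normexp gave −0.05. Of these 11, the deubiquitinase Psmd14 alone passed 2-fold, with log2 levels of 0.30 and −0.65 on the arrays labelled knockout with DSS and LIF and with DSS, against −1.52 (not well above background) and 0.83 on those of wild type with DSS and LIF and with DSS. Its difference under DSS was 2.78-fold, lower in the labelled knockout (log2 difference −1.48), and with normexp it missed 2-fold at −0.72. Psmd7, which pairs with it in the lid, had a log2 difference of 0.70, and the scaffold subunits Psmd1 and Psmd2 had 0.29 and 0.47. The median of the 14 constitutive core particle genes was −0.72 and that of the 17 regulatory particle genes −0.10, so that they differed by −0.62. The core and regulatory particles were set side by side after their values were seen. The immunoproteasome and PA28 median lay −0.66 from the constitutive median and −0.21 from that of the core.

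The activators and chaperones outside these classes were few. Psme3, a nuclear activator, had a log2 difference of 0.11, and the chaperone Psmd10 one of −0.57. Psme4, the largest activator, and the chaperone Psmd5 were well above background in wild type with DSS and not in the labelled knockout with DSS, which bounds them at 1.21-fold and 1.13-fold lower or more. Psme3ip1 was bounded at 1.24-fold lower or more in the same way.

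**Figure D2:**
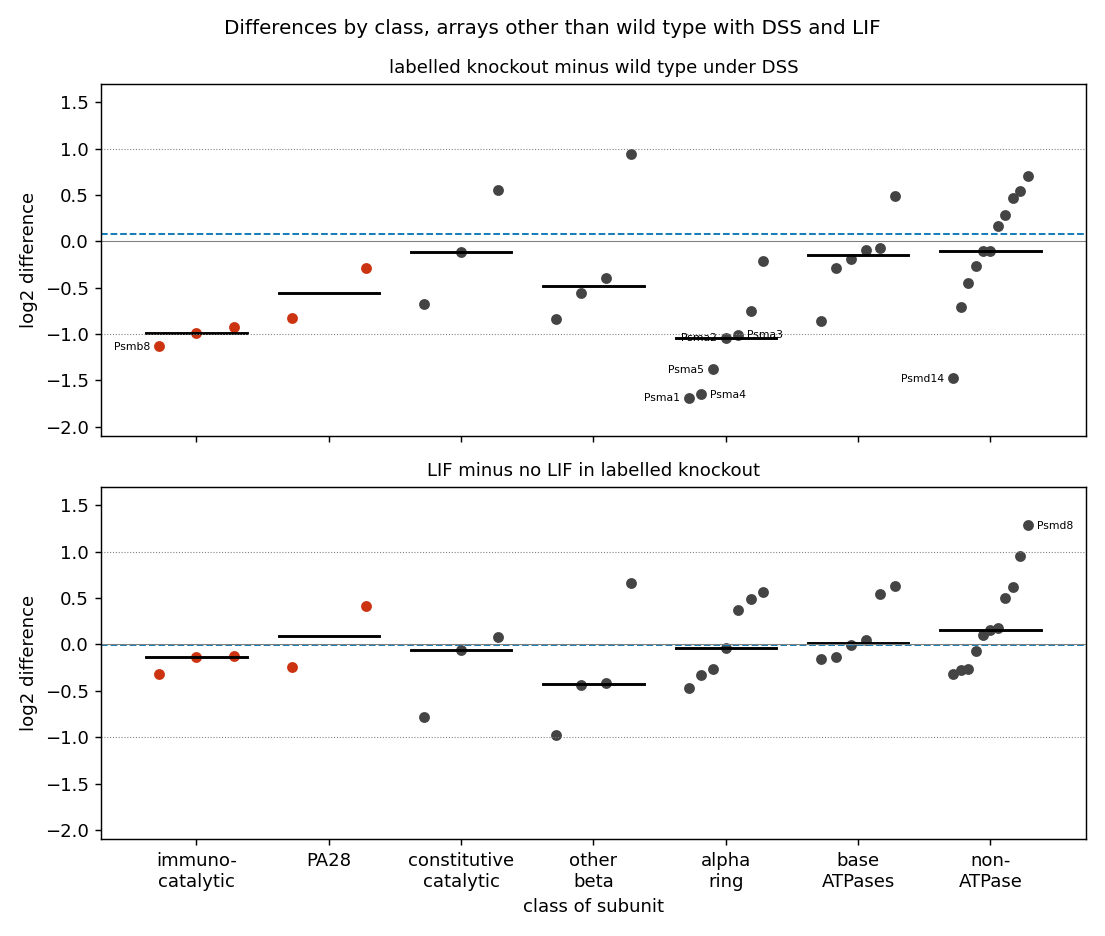
Log2 difference of each measured subunit by class, for labelled knockout minus wild type under DSS (top) and LIF minus no LIF in the labelled knockout (bottom), 1 point per gene with no error bar, since each group had 1 array. Black bars are class medians, the dashed line is the median of all measured genes and dotted lines mark 2-fold. At the top the immunocatalytic and alpha ring medians are −0.99 and −1.04 and those of the regulatory particle classes −0.14 and −0.10.

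Each immunoproteasome subunit was also set against the subunit that it replaces, as a difference of log2 differences under DSS. This was −0.45 for Psmb8 minus Psmb5, −0.87 for Psmb9 minus Psmb6 and −1.48 for Psmb10 minus Psmb7. The last kept its direction under 7 alternatives (−1.55 to −1.48). Only normexp (−1.51), quantile normalization and the authors' table could move it. Scaling by another constant cancels in it. Psmb10 and Psmb7 have 1 probe each, read well on every array, so the filters and the mean over probes leave it unchanged. For the other pairs 1 alternative turned the sign, normexp, which gave 0.97 for Psmb8 and 0.36 for Psmb9. The remaining alternatives left these pairs between −0.57 and −0.45 and between −0.99 and −0.87. With normexp both members of these pairs moved: Psmb8 and Psmb9 had −0.26 and −0.32, and Psmb5 and Psmb6 had −1.23 and −0.68. Psmb10 and Psme2 had −1.39 and −1.41. The offset exceeds the 75th percentile of the processed signal on 3 arrays, and its part in these values was not tested.

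**Figure D3:**
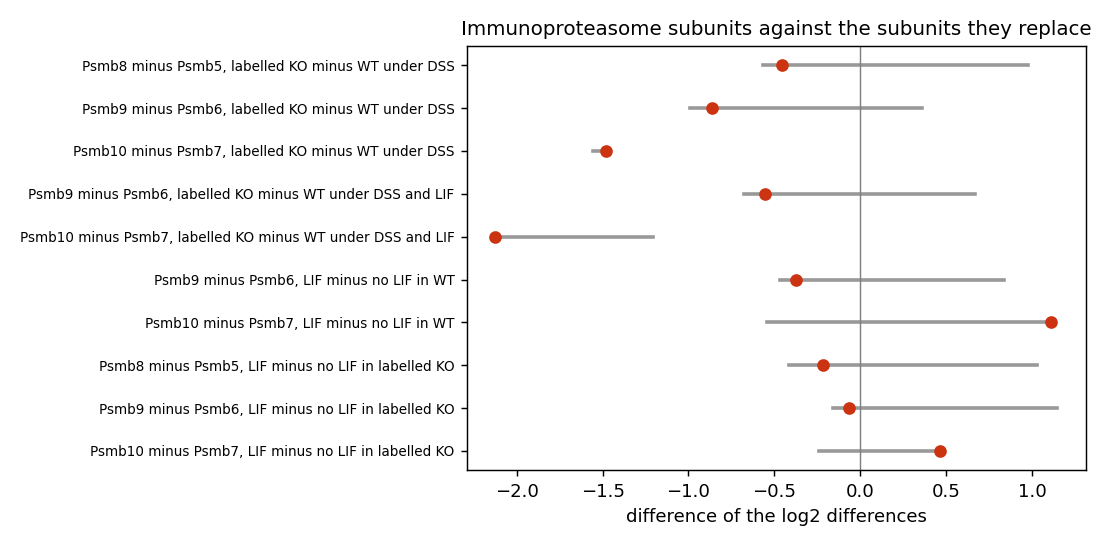
Log2 difference of an immunoproteasome gene minus that of the constitutive gene it replaces (horizontal axis), in each comparison in which both were measured; dots are the reported values and grey lines run from the lowest to the highest alternative processing. Psmb10 minus Psmb7 between the genotypes stays below 0 (−1.48 under DSS, −2.12 under DSS and LIF), while the lines of the Psmb8 and Psmb9 pairs cross 0.

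Genes that act with the proteasome were looked at from lists. In the labelled knockout under DSS, 2 of 15 measured assembly and associated genes passed 2-fold downward and 0 upward, with a median of 0.01. They were Pomp, the chaperone that the core particle needs to mature, with a level of 5.05 in the labelled knockout with DSS, against 6.32 in wild type with DSS (log2 difference −1.27), and the ubiquitin fusion gene Rps27a (−1.01). A second measured probe had −2.21 for Pomp and −0.66 for Rps27a. For class I antigen processing, 2 of 9 measured genes passed 2-fold downward and 0 upward, and the median was −0.64. They were H2-D1, a class I heavy chain, at −1.57, and B2m, the light chain, at −1.28. H2-K1 and Nlrc5, a class I gene activator, had −0.82 and −0.64 by their brightest probes and −1.63 and 0.18 by a second probe. Class I heavy chain genes are near-identical copies, so the values of H2-D1 and H2-K1 are uncertain. Tap1 was well above background in wild type with DSS alone and was bounded at 1.36-fold lower or more in the labelled knockout.

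For interferon gamma signalling, 1 of 6 measured genes passed 2-fold downward in that comparison, Irf1 (−1.04), a transcription factor that interferon gamma induces, and 0 passed it upward. The median of that list was −0.01. Ifng was bounded at 5.63-fold lower or more in the labelled knockout with DSS.

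Cell type markers moved in the same comparison. Under DSS 3 of 4 measured NK cell markers were down by 2-fold or more in the labelled knockout, with a median log2 difference of −1.41. The 5 NK cell markers listed had a summed scaled signal of 13.1 there, against 37.4 in wild type with DSS. The 6 T cell markers had a median of −0.70, with 0 past 2-fold and sums of 13.0 and 19.1 in the labelled knockout and wild type with DSS. Of 5 neutrophil markers 4 were at least 2-fold higher, with a median of 2.80 and sums of 2480 and 445.5 in the same order. All 3 measured stromal markers were at least 2-fold higher (median 2.42) and so were 2 of 5 B cell markers (median 0.91). All 6 epithelial markers were below wild type, with 0 past 2-fold and a median of −0.50. The part of these markers in the proteasome differences was not tested. In tissue isolates like these, fewer cells of a type and less RNA per cell cannot be told apart.

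LIF in the labelled knockout, between arrays of separate scans, gave small differences in these genes. Among 39 measured members 1 passed 2-fold upward with LIF and 0 downward, against 3.21% of all 9783 measured genes higher and 3.08% lower. The gene was Psmd8, a lid subunit, with a level of 0.25 with DSS and LIF, against −1.04 with DSS (2.44-fold higher). The next were Psmd14 at 0.95, Psmb3 at 0.67, Psmc4 at 0.63 and Psmd12 at 0.62. The lowest were Psmb2 at −0.97, Psmb7 at −0.78 and Psma5 at −0.47. Psmd14 and Psmd8 thus differed with LIF in the direction opposite to their difference between genotypes under DSS, but these comparisons share the array labelled knockout with DSS.

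The immunoproteasome and PA28 genes had a median log2 difference of −0.13 with LIF in the labelled knockout, against −0.00 for the constitutive subunits and −0.01 for all genes. Psmb8, Psmb9 and Psmb10 had −0.13, −0.13 and −0.31. Psme2 had −0.24 by its brighter and 0.71 by its dimmer probe. Psme1 had 0.42, its 9 paired spots averaged 0.41 ± 0.05 (SD over spots), and normexp gave −0.29. Psmb3 likewise turned, to −0.25 with normexp, and Psmd8 missed 2-fold there at 0.40. Class I antigen processing genes had 0 of 9 past 2-fold and a median of −0.27. Epithelial markers had a median of 0.67 and B cell markers one of −0.69, and their part was not tested.

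Comparisons with the array of wild type mice given DSS and LIF rest on the array that stood apart. Among the 32 members read on all 4 arrays its levels correlated with those of the other arrays at r = 0.70 to 0.75 across genes, or 0.90 to 0.91 without Psmb2, while the others reached 0.96 to 0.99. These genes share their arrays and are not replicates. Psmb2, a beta ring subunit read by 1 probe on 1 spot, had levels of 9.14 and 10.11 in the labelled knockout with DSS and LIF and with DSS, against 1.40 and 9.18 in wild type with DSS and LIF and with DSS. A single array was therefore low.

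Probes of 1 gene often disagreed in sign, and not only in comparisons with that array. In 7 members with a measured second probe the signs were opposite in 5 for LIF in wild type and in 6 for the genotypes under DSS and LIF, against 1 of 5 for the same genotype comparison under DSS and 4 of 5 for LIF in the labelled knockout. Over all genes with a second measured probe the signs were opposite in 42.2% for LIF in wild type, 41.2% for the genotypes under DSS and LIF, 38.9% for the genotypes under DSS and 39.3% for LIF in the labelled knockout. Psme2 had −1.67 and 0.29 by its brighter and dimmer probe under DSS and LIF, and Psmb5 −0.98 and 0.30. Psmc2 alone had agreeing probes in both comparisons with that array, at −1.79 and −1.70 between genotypes and 1.56 and 1.58 for LIF.

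Between the genotypes under DSS and LIF, read in separate scans, 12 of 33 measured members (36.4%) passed 2-fold downward and 4 (12.1%) upward in the labelled knockout, against 31.3% lower and 14.1% higher of 8348 genes. These shares were near those of all genes, whose median was −0.45. Psmb9 and Psmb10 were 2.35-fold and 2.17-fold lower and Psme2 3.18-fold lower by its brighter probe. Each missed 2-fold under an alternative: Psmb9 had −0.20 with normexp, Psmb10 −0.96 with normexp, −0.99 with quantile normalization and −0.98 with scaling to probes read on all 4 arrays, and Psme2 −0.69 as the mean over its probes. Psme1 had a log2 difference of 0.07, or 0.07 ± 0.05 over 10 spots (SD). The immunoproteasome and PA28 median was −1.17 over 4 genes, against −0.55 for 26 constitutive subunits.

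Alpha ring genes again gave the lowest value, Psma3 with 4.75 in the labelled knockout with DSS and LIF, against 6.91 in wild type with DSS and LIF (4.47-fold lower), but Psma4 and Psma6 were 4.59-fold and 4.07-fold higher. The second probe of Psma4 had a log2 difference of −0.77, and with normexp Psma4 and Psma6 had 0.70 and 0.60. Psma1, Psma5 and Psma2 had −1.93, −1.51 and −1.48. Subunits of the regulatory particle were well above background in the labelled knockout but not in wild type given both agents in several cases, which bounds Psmc4 at 2.38-fold, Psmd8 at 3.34-fold, Psmd11 at 2.81-fold and Psmd14 at 3.48-fold higher or more. Psmc3ip was bounded at 3.63-fold higher or more. Among 9 class I antigen processing genes 4 passed 2-fold downward and 1 upward, and B2m was lowest at −2.90. Among 6 measured interferon gamma signalling genes 2 passed it downward and 0 upward, Irf1 at −2.19 and Ifng at −3.46. Assembly and associated genes had 7 of 14 past 2-fold downward and 1 upward, Adrm1, the ubiquitin receptor of the base, at 2.84. All 3 measured NK cell markers were down by 2-fold or more (median −3.19) and all 3 measured neutrophil markers up (median 2.67). Among the other marker lists 3 of 6 epithelial markers (median 0.73) and 2 of 3 stromal markers (median 1.81) were up by 2-fold or more, and 2 of 6 T cell markers down (median −0.95). The part of these markers was not tested.

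LIF in wild type had 4 of 33 measured members (12.1%) past 2-fold upward and 6 (18.2%) downward. Of all 8963 measured genes 34.5% were higher and 13.6% lower, and their median was 0.57. The immunoproteasome and PA28 genes had 0 of 4 past 2-fold, with Psmb9 at 0.12, Psmb10 at −0.13, Psme1 at 0.06 and Psme2 at 0.60. The second probe of Psme2 had −0.57, and with normexp the brighter one had −0.65. Their median of 0.09 compared with 0.40 for the constitutive subunits. Psmb8 was not well above background with LIF, which bounds it at 1.96-fold lower or more.

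The higher genes were Psmd7 (3.12-fold), the ATPases Psmc2 (2.95-fold) and Psmc1 (2.83-fold) and Psma3 (2.17-fold). The second probe of Psmc1 had a log2 difference of −1.02. With normexp none of these 4 reached 2-fold, with log2 differences of 0.79 for Psmd7, 0.37 for Psmc2, 0.24 for Psmc1 and −0.14 for Psma3. The lower genes, as log2 differences, were Psmb2 (−7.78), Psma4 (−3.28), Psma6 (−2.41), Psmb1 (−1.37), Psmb7 (−1.24) and Psmd10 (−1.02), and the second probe of Psmd10 had 1.30. Psmd14 was at least 4.99-fold lower, Psmd8 2.24-fold, Psmc4 1.89-fold, Psmd11 1.78-fold, Psmd13 1.32-fold and Psmc3ip 1.12-fold, by their bounds. The class medians were 0.77 for the 5 measured of 6 ATPases and 0.60 for the 7 measured of 11 other regulatory subunits. They were 0.18 for the 7 alpha ring genes and −0.97 for the 4 beta subunits without a cutting site. Psmc4, Psmd8, Psmd11, Psmd13 and Psmd14, bounded as lower, are not in these medians. The regulatory medians thus cover only genes that stayed well above background with LIF. Among the interferon gamma signalling genes 3 of 6 passed 2-fold upward, Ifng (1.26), Irf1 (1.16) and the receptor gene Ifngr1 (1.03), and Irf8 (−1.55) passed it downward. Class I antigen processing genes had 2 of 9 past 2-fold in each direction, with Canx (1.11) and B2m (1.00) up and Pdia3 (−2.30) and H2-D1 (−1.13) down. Epithelial markers had 3 of 6 down by 2-fold or more (median −0.57), and their part was not tested.

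**Figure D4:**
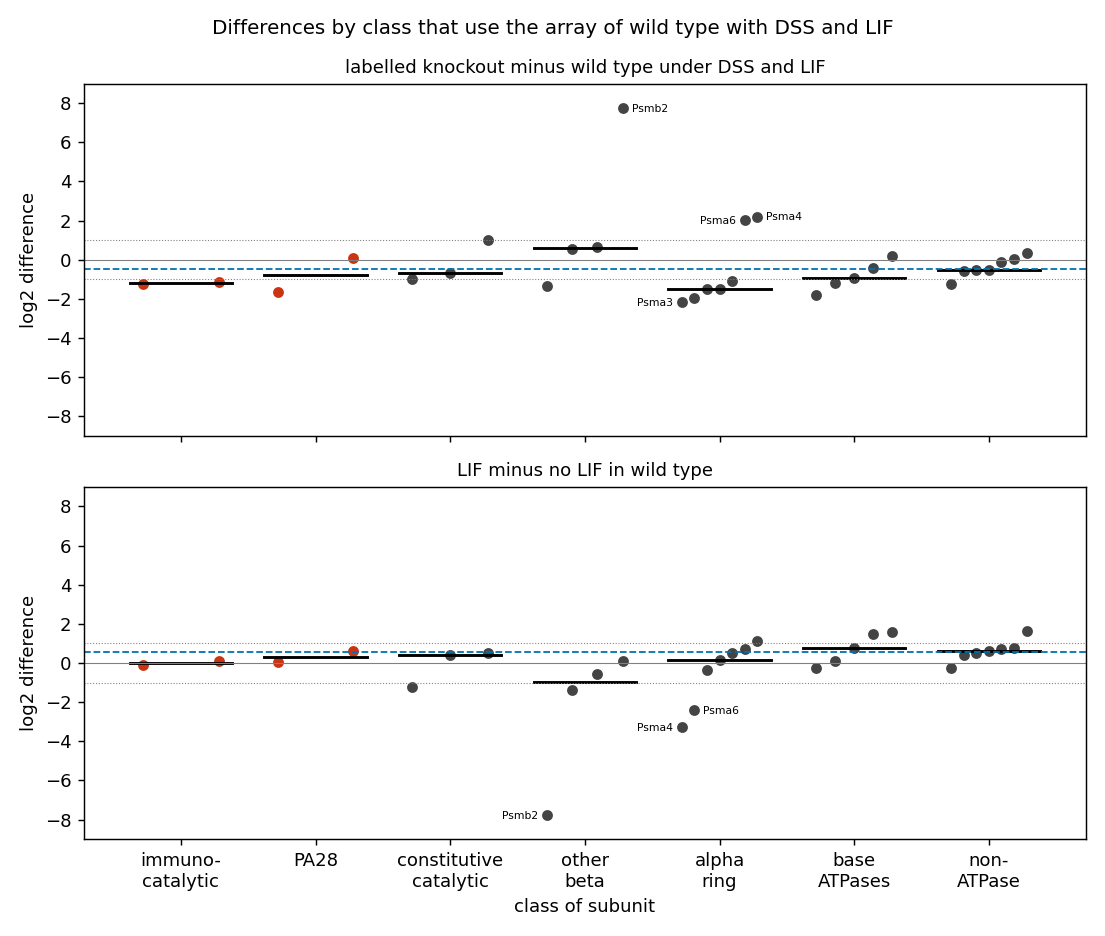
Log2 difference of each measured subunit by class for the comparisons that use the array of wild type mice with DSS and LIF, drawn as in the plot of the other comparisons but on a wider axis; names are given from a log2 difference of 2. Psmb2 lies at 7.74 between genotypes and at −7.78 for LIF in wild type, and Psma4 and Psma6 lie apart from the other alpha ring genes.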

How the data were processed

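RNA of 4 one-colour Agilent arrays, 1 per group, was read with Feature Extraction 11.0.1.1 per the file headers (9.1 per the submitters' processing notes). The deposited intensity is the background-subtracted processed signal of each spot, per the file headers. A table of log2 values from the authors exists too; its normalization and centring are not given in the sources used here. Higher values in it are brighter. Its column medians were 3.31 and 3.31 for the labelled knockout with DSS and LIF and with DSS. For wild type in the same order they were 2.54 and 3.31. The 2.54 is also the lowest value of its column, so many rows of that column share it. Over probes well above background the authors' table correlated with the log2 processed signals at r = 0.9986 to 0.9996. It was used as an alternative.

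Spots marked as outliers were left out, the 75th percentile over all non-control spots of each array was subtracted on the log2 scale, spots of a probe were averaged, and the brightest probe stood for a gene. Probes were named by accession through RefSeq (GRCm38.p6), which matched 27234 of 39429 (69.1%). A gene counted as measured if both arrays of a comparison marked its probe as well above background. With the mark on 1 array, a bound is given against the lowest marked signal of the dim array, or the probe's own where that is higher. Python 3.11.15 (pandas 2.3.3, numpy 2.4.6) and R 4.3.3 (limma 3.58.1, normexp) were used. The calculation was tested on simulated arrays that were all made from the wild type DSS levels. They held no difference in brightness or detection between arrays, so such differences were not part of that test.

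Values are given for the immunoproteasome, PA28 and constitutive catalytic genes and for the 5 highest and 5 lowest other members of each comparison, with classes by count and median; a few more were named by role after their values were seen. The members and lists were chosen with earlier results of these data known. Without replicates no p-value or interval was computed, and the number of arrays limits the precision.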

Additional observations from a re-analysis of the deposited data

Results flagged for a closer look

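Psma4, an alpha ring gene, had genotype differences of opposite direction under the 2 treatments. The log2 difference of the labelled knockout minus wild type was 2.20 under DSS and LIF and −1.65 under DSS, so that they differed by 3.85. The difference was not tested, since each group had 1 array. The value under DSS and LIF uses the array of wild type mice with DSS and LIF, and the second probe of Psma4 had −0.77 there.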

How the results depend on the processing

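No paired analysis was possible because each group has 1 array, and for the same reason no replicate could be left out. The 7 alternatives were normexp background correction with an offset of 50, quantile normalization, scaling to the median of the probes that all 4 arrays read well, no filter on background, a filter on all 4 arrays, the mean over probes and the authors' deposited table. The core median stayed below the regulatory median under each of them in all 4 comparisons. This is no independent check, because these particles were set side by side after their values were seen and the comparisons share arrays. Scaling by another constant cannot change a difference of medians. In the main analysis, both comparisons that include LIF-treated wild type mice held all 14 core genes but only 12 of the 17 regulatory genes. Under DSS the immunoproteasome and PA28 median stayed below the constitutive one, by −0.68 to −0.21. The cause of the changes was not tested.

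Among values past 2-fold, and among the class medians, those that reversed were Psma3 for LIF in wild type (−0.14 with normexp), Psmd10 for LIF in wild type (0.14 as the mean over probes) and the immunoproteasome minus constitutive median for LIF in the labelled knockout (0.21 with normexp). Counting values under 2-fold too, 16 of 70 values of named members turned their sign under at least 1 alternative, 13 of them with normexp. Of 30 values past 2-fold, 16 missed it under at least 1 alternative, 14 of them with normexp.

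The immunoproteasome minus constitutive median moved with normexp to −0.21 under DSS, −0.19 under DSS and LIF and −0.13 for LIF in wild type. For LIF in wild type it was −0.052 with no filter and −0.11 as the mean over probes, and for LIF in the labelled knockout −0.24 in the authors' table. The core minus regulatory median moved with normexp to −1.04 under DSS and −0.74 for LIF in the labelled knockout. Under DSS and LIF it was −0.46 with quantile normalization, −0.70 with no filter and −0.46 in the authors' table, and for LIF in wild type −0.54, −0.53 and −0.57 in the same order.

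Members at least 2-fold higher under DSS numbered 3 with no filter, 0 with the filter on all 4 arrays and 0 without the 2 genes that are no subunits, an alternative chosen after seeing the data. They numbered 1 with normexp and 10 with no filter under DSS and LIF, 0 and 7 for LIF in wild type, and 0 and 3 for LIF in the labelled knockout, where the filter on all 4 arrays gave 0 and 2 was the count in the authors' table. Members at least 2-fold lower numbered 10 with normexp and 14 with no filter for LIF in wild type, and 6 with normexp for LIF in the labelled knockout. Over all genes under DSS, 1387 were at least 2-fold higher and 715 lower, against 329 and 802 with normexp. The median of all genes for LIF in wild type was 0.57, or 0.43 when scaled to the common probes, and under DSS and LIF −0.45 or −0.31.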
